A study of Mus musculus with 10 samples.

Results

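The Wnt ligands, their receptors and co-receptors, and the secreted inhibitors that bind them were followed in the open chromatin of mouse colon organoids. The set holds 39 of the 21938 protein-coding genes on the assembled chromosomes, chosen by name: 19 Wnt ligands, all 10 Frizzled receptors, the co-receptors *Lrp5* and *Lrp6*, 4 secreted Frizzled-related proteins (*Sfrp1*, *Sfrp2*, *Sfrp4* and *Sfrp5*) and 4 Dickkopf proteins (*Dkk1* to *Dkk4*). Organoids were grown from colonic crypts of C57BL/6 mice, either Vil-Cre Ahr fl/fl (AHR KO), in which the Villin promoter drives Cre in the gut epithelium and deletes the aryl hydrocarbon receptor there, or their wild type (WT) littermates. WENR medium contains EGF, Noggin, R-spondin1 and Wnt3a conditioned medium together with a p38 inhibitor, an ALK5 inhibitor and nicotinamide, and d4 ENR organoids spent 4 days in EGF, Noggin and R-spondin1 alone. Withdrawal of Wnt3a and removal of these small molecules therefore cannot be told apart. Live sorted cells were profiled by Omni-ATAC-seq, in which a transposase cuts open chromatin, with 2 libraries of WT WENR, 3 of WT d4 ENR, 3 of AHR KO WENR and 2 of AHR KO d4 ENR. The question addressed was how accessibility at the genes for sending, receiving and blocking a Wnt signal changed when the Wnt medium was withdrawn, in each genotype.

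Wnt ligands are lipid-modified secreted proteins that bring a Frizzled receptor and the co-receptor Lrp5 or Lrp6 together, which stabilises β-catenin and lets TCF/LEF factors turn on their targets. Secreted Frizzled-related proteins bind Wnt ligands outside the cell, and Dickkopf proteins block Lrp5 and Lrp6. In the colon this signal is strongest at the crypt base, where it maintains stem cells, and it weakens as cells move up the crypt and differentiate.

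The measure used for a gene was the number of bases that peaks covered in its window, which runs from 5 kb before the gene body to 5 kb past it (covered bases). Peaks were called by the authors in each library alone, so an absent peak means that a stretch fell short of the calling threshold and may still be partly open. Libraries held 30354729 to 49126792 fragments. Peaks held 63.0% to 68.6% of the coverage in the 5 WENR libraries, 14.1% to 30.9% in WT d4 ENR and 33.8% to 44.2% in AHR KO d4 ENR, and the number of peaks ran from 33433 in WT d4 ENR 1 to 65308. Covered bases fell across the genome with this share, so each count below is set beside the same count over the 17290 genes with a peak in at least 1 library. At *Ahr* itself, WT WENR libraries had 2142 and 2544 covered bp, AHR KO WENR 5130 to 7017 bp, WT d4 ENR 1216 to 1595 bp and AHR KO d4 ENR 3250 and 3541 bp. Covered bases over a whole gene do not resolve the deleted exon and do not check the labels. All 7 epithelial markers (*Epcam*, *Cdh1*, *Krt8*, *Krt18*, *Vil1*, *Cdx1* and *Cdx2*) had a promoter peak in all 10 libraries. Of 9 markers of immune, endothelial and stromal cells, 6 had a peak in at least 1 library. Among the 9, *Cd3e* and *Col1a2* had no peak in any library, while *Col1a1* and *Pdgfra* had a promoter peak in every library. Summed covered bases of all 9 markers were 7309 to 9755 bp in WENR, 1408 to 5042 bp in WT d4 ENR and 3759 to 6440 bp in AHR KO d4 ENR. Those of the epithelial markers were 58214 to 66019 bp, 29376 to 41445 bp and 48471 to 50123 bp. The part of either list in the results below was not tested.

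The sequences of 6 regions are shown as examples of those lost in d4 ENR, 4 of them in both genotypes and 2 of them in WT alone. Each line gives 200 bases of GRCm38, plus strand, around the centre of the stretch that most libraries shared. Matches to TGANTCA, the AP-1 motif, which reads the same on both strands, are in capitals.
Dkk2 promoter, chr3:132084959-132085158: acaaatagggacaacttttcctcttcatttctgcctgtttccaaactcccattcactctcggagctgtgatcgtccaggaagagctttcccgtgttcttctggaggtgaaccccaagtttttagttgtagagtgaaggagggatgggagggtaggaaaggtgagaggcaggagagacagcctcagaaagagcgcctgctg
Wnt16 promoter, chr6:22288945-22289144: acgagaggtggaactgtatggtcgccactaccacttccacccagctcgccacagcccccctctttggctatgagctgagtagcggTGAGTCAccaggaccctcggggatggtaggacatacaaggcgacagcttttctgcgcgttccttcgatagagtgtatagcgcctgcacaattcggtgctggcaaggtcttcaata
Wnt5b intron, chr6:119472256-119472455: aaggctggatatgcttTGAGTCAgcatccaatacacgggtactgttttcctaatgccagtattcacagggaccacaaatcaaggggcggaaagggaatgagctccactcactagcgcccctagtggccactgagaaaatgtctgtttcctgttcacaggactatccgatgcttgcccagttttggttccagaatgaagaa
Lrp6 intron, chr6:134528413-134528612: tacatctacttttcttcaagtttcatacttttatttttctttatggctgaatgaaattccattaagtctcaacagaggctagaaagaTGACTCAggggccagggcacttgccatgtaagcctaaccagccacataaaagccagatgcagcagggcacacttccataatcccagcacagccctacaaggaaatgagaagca
Dkk2 intron, chr3:132122050-132122249: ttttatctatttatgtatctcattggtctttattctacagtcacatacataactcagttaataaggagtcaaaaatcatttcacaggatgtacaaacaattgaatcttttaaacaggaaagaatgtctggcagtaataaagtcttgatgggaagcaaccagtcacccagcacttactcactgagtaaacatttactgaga
Lrp6 intron, chr6:134521125-134521324: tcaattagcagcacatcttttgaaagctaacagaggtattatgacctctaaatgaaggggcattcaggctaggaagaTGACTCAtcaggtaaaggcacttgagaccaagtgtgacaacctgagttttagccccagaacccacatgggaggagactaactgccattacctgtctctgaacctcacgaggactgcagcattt
The upper 4 had a peak in all 5 WENR libraries but in none from d4 ENR. The lower 2 were peaks in WENR of both genotypes and in both AHR KO d4 ENR libraries, and were lost in WT d4 ENR. The AP-1 motif occurred in 4 of the 12 regions that the naming rule selects, in 11 of all 108 regions at these genes (10.2%) and in 17.1% of the windows of all 85680 regions. All 4 are among the 6 shown. The selected regions of the same kinds at *Wnt3*, *Wnt9a*, *Wnt7b*, *Sfrp4* and *Fzd3* are not shown and had no AP-1 match, so the 6 overstate how common the motif is. Of the other motifs searched on both strands, the TCF/LEF motif CTTTGAT was in none of the 12 windows, against 3.35% of all windows. The TEAD motif, ACATTCC or GCATTCC, was in none of the 12, against 7.46%. The HNF4 motif CAAAGTCCA was in none of the 12, against 1.13%, and can overlap a TCF/LEF match on the opposite strand. The AHR:ARNT motif TNGCGTG was in 1 of the 12, upstream of *Sfrp4*, and in 2.58% of all windows. A match describes letters, not binding.

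Of the 39 genes, 38 had a peak in at least 1 library and 25 had one in all 10. *Wnt5a*, a ligand that mostly signals without β-catenin, had none. The gene's own promoter, within 1 kb of a start of transcription, held a peak in all 10 libraries for 19 genes and in none for 8 (*Wnt2*, *Wnt3a*, *Wnt5a*, *Wnt8a*, *Sfrp4*, *Sfrp5*, *Dkk1* and *Dkk3*). Summed over the 39 genes, peaks covered 93300 and 97253 bp in WT WENR and 96754, 100527 and 106308 bp in AHR KO WENR. WT d4 ENR libraries reached 32416, 41249 and 56330 bp, and those of AHR KO d4 ENR 67240 and 70534 bp. The highest d4 ENR sum was below the lowest WENR sum, and in d4 ENR the genotypes did not overlap, AHR KO being higher. The number of genes with their own promoter peak was 28 to 30 in WENR, 19, 21 and 24 in WT d4 ENR and 23 and 26 in AHR KO d4 ENR.

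**Figure D1:**
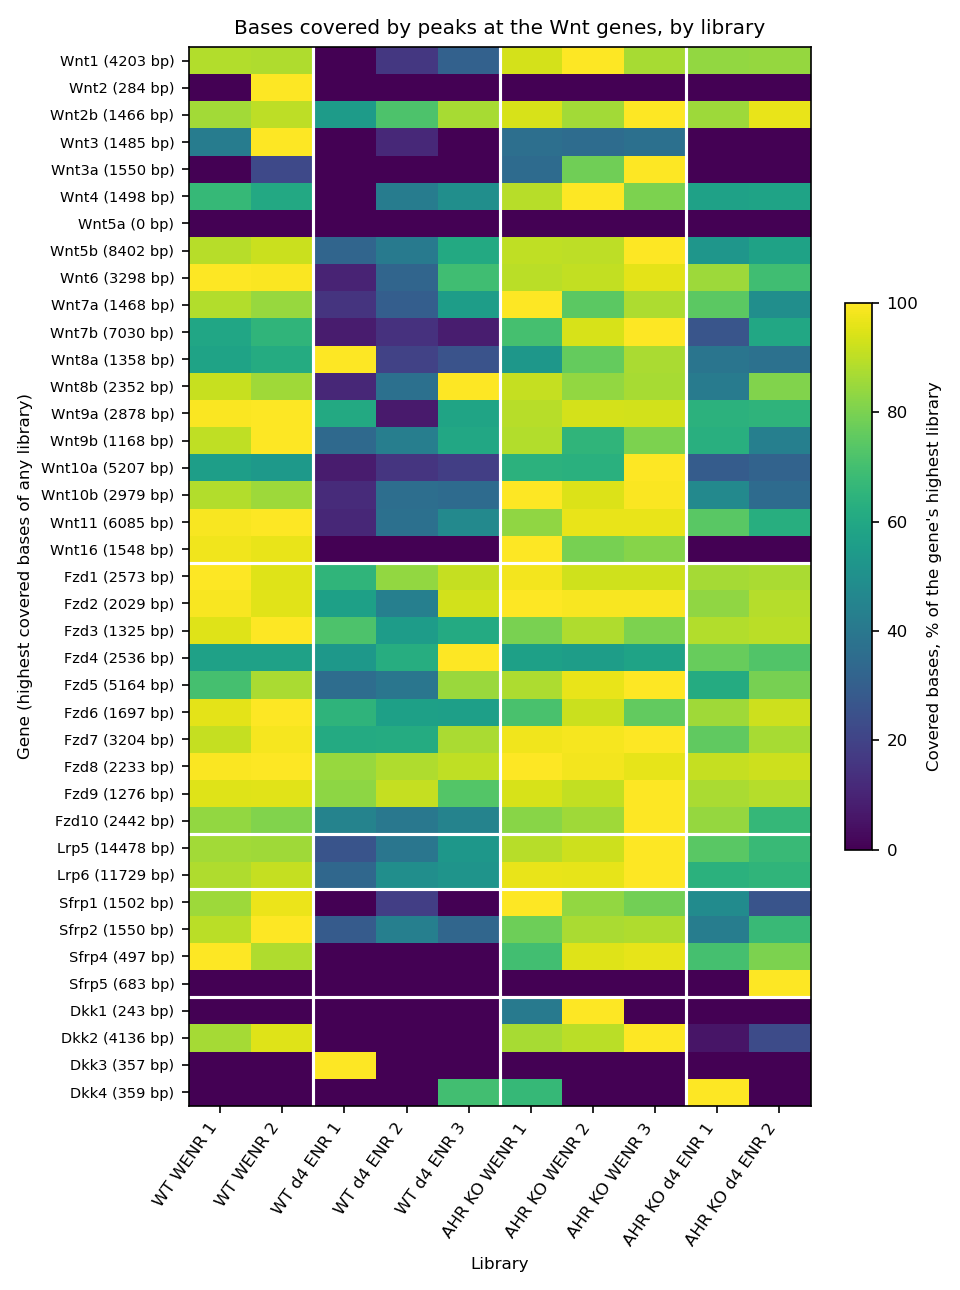
Covered bases of each of the 39 genes (rows, grouped by role, with the gene's highest value in bp) in each of the 10 libraries (columns, grouped by genotype and medium), as a percent of the gene's highest library. Every Frizzled row has covered bases in all 10 columns, while *Wnt16* and *Dkk2* turn dark in the 3 WT d4 ENR columns.

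Covered bases were lower in d4 ENR than in WENR for 24 of the 38 genes (63.2%) and higher for none, by an exact permutation test of the medium within genotypes at an unadjusted p of at most 0.05. Of all genes tested, 60.0% were lower and 0.428% higher, so the share of Wnt genes that fell was near the background. For 22 of the 24 the exact permutation p was 0.02, the smallest that 100 arrangements can give, and the Benjamini-Hochberg adjusted p over all genes was 0.0387. For *Wnt7a* and *Fzd10* the exact p was 0.04 and the adjusted p 0.0662. Of their WENR level, WT organoids kept a median of 46.8% of covered bases over the 34 Wnt genes covered in WENR, and 60.4% over 16710 genes. AHR KO organoids kept 71.0% over 35 Wnt genes and 82.9% over 16922 genes. These medians include 5 Wnt genes that had no peak in WT d4 ENR and 4 that had none in AHR KO d4 ENR, and no test was made on them. On the log2 scale, over genes covered in both media, the medians were -1.02 in WT and -0.43 in AHR KO against -0.69 and -0.25 over all genes.

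Among the ligands, 13 of the 18 with a peak were covered less in d4 ENR and none more, against 60.0% and 0.428% of all genes. The median share kept was 34.8% in WT (n = 18) and 64.0% in AHR KO (n = 17). The ligands summed to 42810 and 44746 bp in WT WENR, 44120 to 50487 bp in AHR KO WENR, 9844 to 22066 bp in WT d4 ENR and 27354 and 29192 bp in AHR KO d4 ENR. *Wnt16* lost its promoter peak altogether. Its peaks covered 1516 and 1499 bp in WT WENR and 1548, 1233 and 1265 bp in AHR KO WENR, and 0 bp in all 5 d4 ENR libraries (exact permutation p = 0.02). This peak was weak where it was present, with a fold enrichment over local background of 2.62 to 3.00, and it is not in lists cut to equal length. *Wnt3*, the canonical ligand that Paneth cells supply in the small intestine, was covered over 622 and 1485 bp in WT WENR and 526 to 550 bp in AHR KO WENR. In d4 ENR only the library WT d4 ENR 2 held a peak there, of 171 bp. *Wnt7b* was covered over 4170 and 4613 bp in WT WENR and 4959, 6616 and 7030 bp in AHR KO WENR, against 525, 1009 and 573 bp in WT d4 ENR and 1844 and 4203 bp in AHR KO d4 ENR. The 3 WT d4 ENR libraries were the lowest at *Wnt7b*, at 16.0% of the WT WENR mean.

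Among ligands made by gut epithelium, *Wnt4*, *Wnt6*, *Wnt9b* and *Wnt10a* all passed the test. *Wnt10a* was covered over 2913 and 2816 bp in WT WENR and 3309 to 5207 bp in AHR KO WENR, and over 398, 811 and 959 bp in WT d4 ENR and 1516 and 1655 bp in AHR KO d4 ENR. *Wnt4*, which can signal with or without β-catenin, was covered over 1005 and 906 bp in WT WENR and 1204 to 1498 bp in AHR KO WENR. It dropped to 0, 631 and 742 bp in WT d4 ENR and to 857 and 867 bp in AHR KO d4 ENR. *Wnt9b* was covered over 1055 and 1168 bp in WT WENR, 765 to 1033 bp in AHR KO WENR, 397 to 700 bp in WT d4 ENR and 737 and 506 bp in AHR KO d4 ENR, with no overlap between the media. *Wnt6* was covered over 3298 and 3274 bp in WT WENR and 2955 to 3165 bp in AHR KO WENR. Its WT d4 ENR libraries spread widely, at 333, 1075 and 2291 bp, while AHR KO d4 ENR stood at 2816 and 2292 bp. The windows of *Wnt6* and *Wnt10a* overlap on chromosome 1 and share 1 region.

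Of the other ligands, *Wnt5b*, a relative of *Wnt5a*, had the most covered bases of any ligand in WENR, 7498 and 7732 bp for WT and 7589, 7569 and 8402 bp for AHR KO. WT d4 ENR libraries stood at 2730, 3418 and 5104 bp, AHR KO d4 ENR libraries at 4418 and 4839 bp. Its window also holds the promoter of *Fbxl14*. *Wnt1* was covered over 3715 and 3704 bp in WT WENR and 3659 to 4203 bp in AHR KO WENR, and over 0, 686 and 1303 bp in WT d4 ENR. In AHR KO d4 ENR *Wnt1* stood at 3525 and 3534 bp, 89.7% of the AHR KO WENR mean against 17.9% in WT. Its strongest peaks were weak where present, with a fold enrichment of 2.54 to 3.30, and *Wnt1* has no peak in lists cut to equal length. *Wnt10b* had 2543 to 2979 bp in WENR and 372 to 1406 bp in d4 ENR, and *Wnt7a* 1097 to 1468 bp and 222 to 1098 bp. *Wnt9a* was covered over 2862 and 2878 bp in WT WENR, 2573, 2694 and 2685 bp in AHR KO WENR, 1749, 205 and 1684 bp in WT d4 ENR and 1848 and 1868 bp in AHR KO d4 ENR. *Wnt2b*, *Wnt3a*, *Wnt8a* and *Wnt8b* did not pass, with exact permutation p values of 0.2, 0.08, 0.22 and 0.16. *Wnt2* had a single peak, of 284 bp in WT WENR 2. *Wnt3a*, the ligand supplied in WENR, had no promoter peak in any library. It had peaks in all 3 AHR KO WENR libraries (539, 1215 and 1550 bp), in 1 of 2 WT WENR libraries (345 bp) and in no d4 ENR library.

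*Wnt11*, a ligand tied mostly to signalling without β-catenin, changed in 2 directions depending on the measure. Its covered bases were 6017 and 6085 bp in WT WENR and 5073, 5884 and 5890 bp in AHR KO WENR, and fell to 688, 2236 and 2876 bp in WT d4 ENR and 4529 and 3819 bp in AHR KO d4 ENR. The strongest *Wnt11* peak had a fold enrichment of 2.73 to 3.30 in the 5 WENR libraries, 3.02, 4.19 and 3.69 in WT d4 ENR and 5.92 and 4.62 in AHR KO d4 ENR. Its rank, the percent of peaks in the same list with a lower fold enrichment, was 21.4 and 28.1 in WT WENR, at least 20.1 in each AHR KO WENR library, 37.5 to 52.1 in WT d4 ENR and 89.7 and 63.5 in AHR KO d4 ENR. The highest *Wnt11* pileup per 10 M fragments was 13.2 to 16.7 in WENR, 4.61 to 6.85 in WT d4 ENR and 10.9 and 9.25 in AHR KO d4 ENR. The highest pileup was therefore lower in d4 ENR. It need not belong to the peak with the highest fold enrichment, so whether the pileup fell at that peak was not tested. With every list cut to the 33433 peaks of the shortest one, *Wnt11* had no peak in any WENR library, 688, 898 and 2690 bp in WT d4 ENR and 848 and 1861 bp in AHR KO d4 ENR, so its covered bases were then higher in d4 ENR (exact permutation p = 0.02). The broad region over its promoter, chr7:98834710-98839252, narrowed from 4300 to 4426 bp in WENR to 262, 1338 and 1476 bp in WT d4 ENR and 3312 and 1958 bp in AHR KO d4 ENR. The strongest AHR KO d4 ENR peak lies inside the gene, in chr7:98848745-98850739, a region with its core 1493 bp downstream of the nearest start and a peak in all 10 libraries. Another region, chr7:98842877-98843366, held a peak in 2 WT and 1 AHR KO d4 ENR libraries and in no WENR library.

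**Figure D2:**
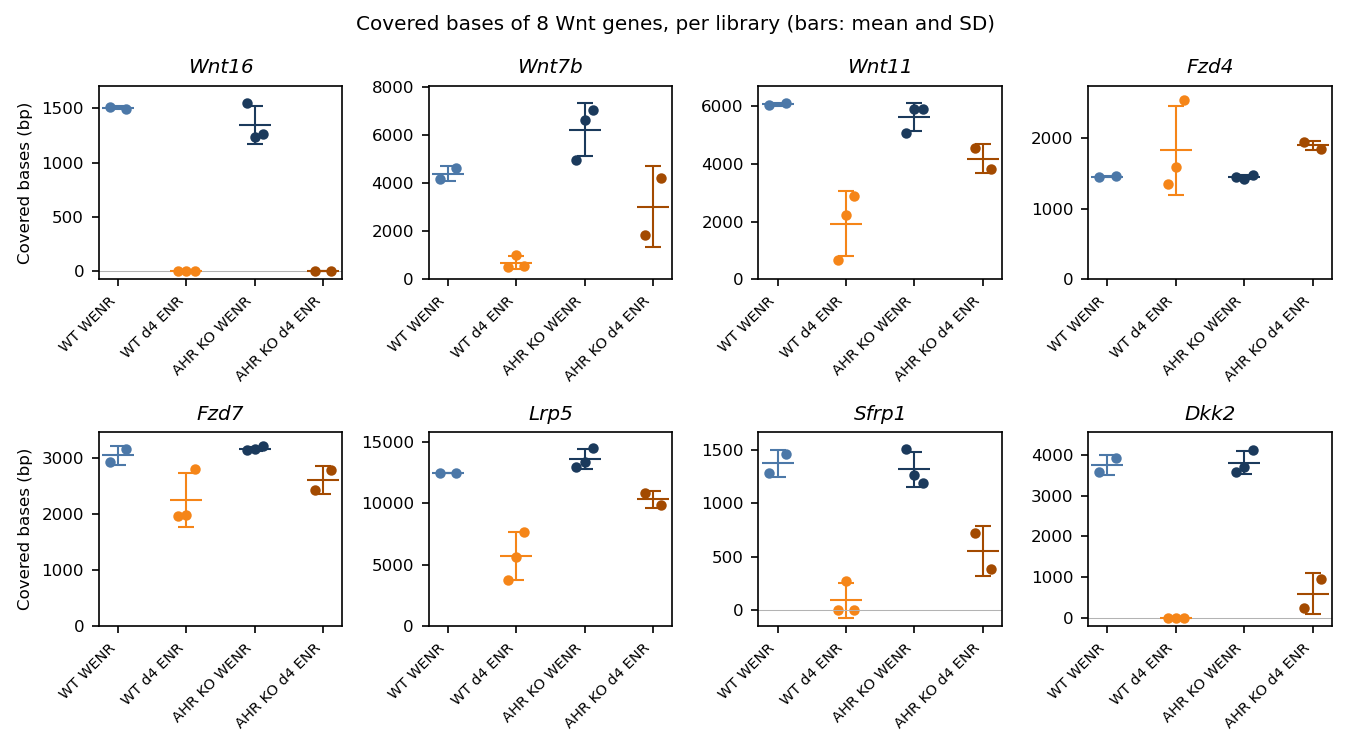
Covered bases in bp of 8 genes, 1 panel each, for WT WENR (n = 2), WT d4 ENR (n = 3), AHR KO WENR (n = 3) and AHR KO d4 ENR (n = 2). Dots are libraries and bars the mean with SD. *Wnt16* is at 0 bp in every d4 ENR library, *Dkk2* at 0 bp in WT d4 ENR, and *Fzd4* is the gene whose mean is higher in d4 ENR.

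All 10 Frizzled genes had a promoter peak in all 10 libraries. In covered bases 6 of 10 fell (*Fzd1*, *Fzd2*, *Fzd7*, *Fzd8*, *Fzd9* and *Fzd10*) and none rose, which is the share over all genes (60.0% lower). The median share kept was 70.6% in WT and 92.4% in AHR KO (n = 10 each). The Frizzled genes summed to 20966 and 21971 bp in WT WENR and 21370 to 22448 bp in AHR KO WENR, against 14086, 14424 and 19770 bp in WT d4 ENR and 19298 and 20368 bp in AHR KO d4 ENR. The falls at *Fzd8* and *Fzd9* were small, from 2148 to 2233 bp in WENR to 1888 to 2064 bp in d4 ENR and from 1158 to 1276 bp to 935 to 1163 bp. No test compared receptors with ligands.

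*Fzd7*, a receptor of intestinal stem cells, was covered over 2921 and 3165 bp in WT WENR and 3133 to 3204 bp in AHR KO WENR. It was covered over 1957, 1975 and 2803 bp in WT d4 ENR and 2428 and 2782 bp in AHR KO d4 ENR. Its strongest peak, at the promoter (chr1:59481591-59484224), had a fold enrichment of 3.46 to 3.99 in WENR and 4.12 to 4.88 in d4 ENR. The highest pileup per 10 M fragments in its window was 52.5 to 59.9 in WENR, 16.1 to 21.0 in WT d4 ENR and 30.4 and 31.8 in AHR KO d4 ENR. This pileup was thus lower in d4 ENR, while the ratio to local background was higher. *Fzd5*, the receptor linked to Paneth cell maturation, had 3651 and 4515 bp in WT WENR, 4527 to 5164 bp in AHR KO WENR, 1843, 2037 and 4385 bp in WT d4 ENR and 3182 and 4110 bp in AHR KO d4 ENR (exact permutation p = 0.06). At its promoter region the fold enrichment was 2.65 to 2.82 in WENR and 3.35 to 4.25 in d4 ENR, without overlap. The highest pileup per 10 M fragments in the *Fzd5* window was lower in d4 ENR. It was 71.6 to 86.1 in WENR, 28.3 to 36.9 in WT d4 ENR and 59.1 and 57.2 in AHR KO d4 ENR.

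*Fzd4*, a receptor that also binds Norrin, was the 1 Frizzled gene with a higher mean in d4 ENR in both genotypes. Peaks covered 1451 and 1456 bp in WT WENR and 1446, 1415 and 1470 bp in AHR KO WENR, against 1348, 1584 and 2536 bp in WT d4 ENR and 1942 and 1847 bp in AHR KO d4 ENR. The media overlapped through WT d4 ENR 1 alone, which has the shortest list, and the exact permutation p was 0.06. Without that library the exact permutation p was 0.0333, the smallest then possible, and *Fzd4* was the 1 Wnt gene covered more in d4 ENR, against 0.995% of all genes. The added bases came from 1 region in the last exon, chr7:89410508-89411893, 7215 bp downstream of the start at its core. It covered 222, 339 and 1243 bp in WT d4 ENR and 525 and 506 bp in AHR KO d4 ENR and had no peak in WENR, and its fold enrichment was 3.16 to 5.21. The promoter peak of *Fzd4* lies within 1 kb of the start of *Tmem135*.

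*Fzd3* and *Fzd6*, receptors best known from planar cell polarity, were covered less in the 3 WT d4 ENR libraries than in all 7 others, with no overlap. *Fzd3* had 1259 and 1325 bp in WT WENR, 957, 731 and 811 bp in WT d4 ENR, 1057 to 1166 bp in AHR KO WENR and 1172 and 1187 bp in AHR KO d4 ENR. *Fzd6* had 1627 and 1697 bp in WT WENR, 1102, 966 and 956 bp in WT d4 ENR, 1213 to 1558 bp in AHR KO WENR and 1452 and 1571 bp in AHR KO d4 ENR. Neither passed the test of the medium, which averages the genotypes, with exact permutation p values of 0.2 and 0.18.

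The co-receptors have long genes with many regions, 17 at *Lrp5* and 15 at *Lrp6*, and had the most covered bases of the set. *Lrp5* was covered over 12455 and 12439 bp in WT WENR and 12936, 13365 and 14478 bp in AHR KO WENR, and over 3779, 5658 and 7645 bp in WT d4 ENR and 10797 and 9831 bp in AHR KO d4 ENR. *Lrp6* was covered over 10312 and 10711 bp in WT WENR and 11285 to 11729 bp in AHR KO WENR, and over 3905, 5774 and 6085 bp in WT d4 ENR and 7469 and 7678 bp in AHR KO d4 ENR. Both fell (exact permutation p = 0.02, adjusted p = 0.0387), and WT kept 45.7% and 50.0% and AHR KO 75.9% and 66.1% of the WENR mean. Both kept a promoter peak in all 10 libraries. At *Lrp6* the region 13202 bp downstream of the nearest start, whose sequence is shown above, was covered over 295 to 1108 bp in WENR and absent in d4 ENR. The region at 20490 bp was covered over 1233 to 1451 bp in WENR, absent in WT d4 ENR and present over 398 and 1128 bp in AHR KO d4 ENR. The region at 25665 bp was covered over 1325 to 1614 bp in every library.

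**Figure D3:**
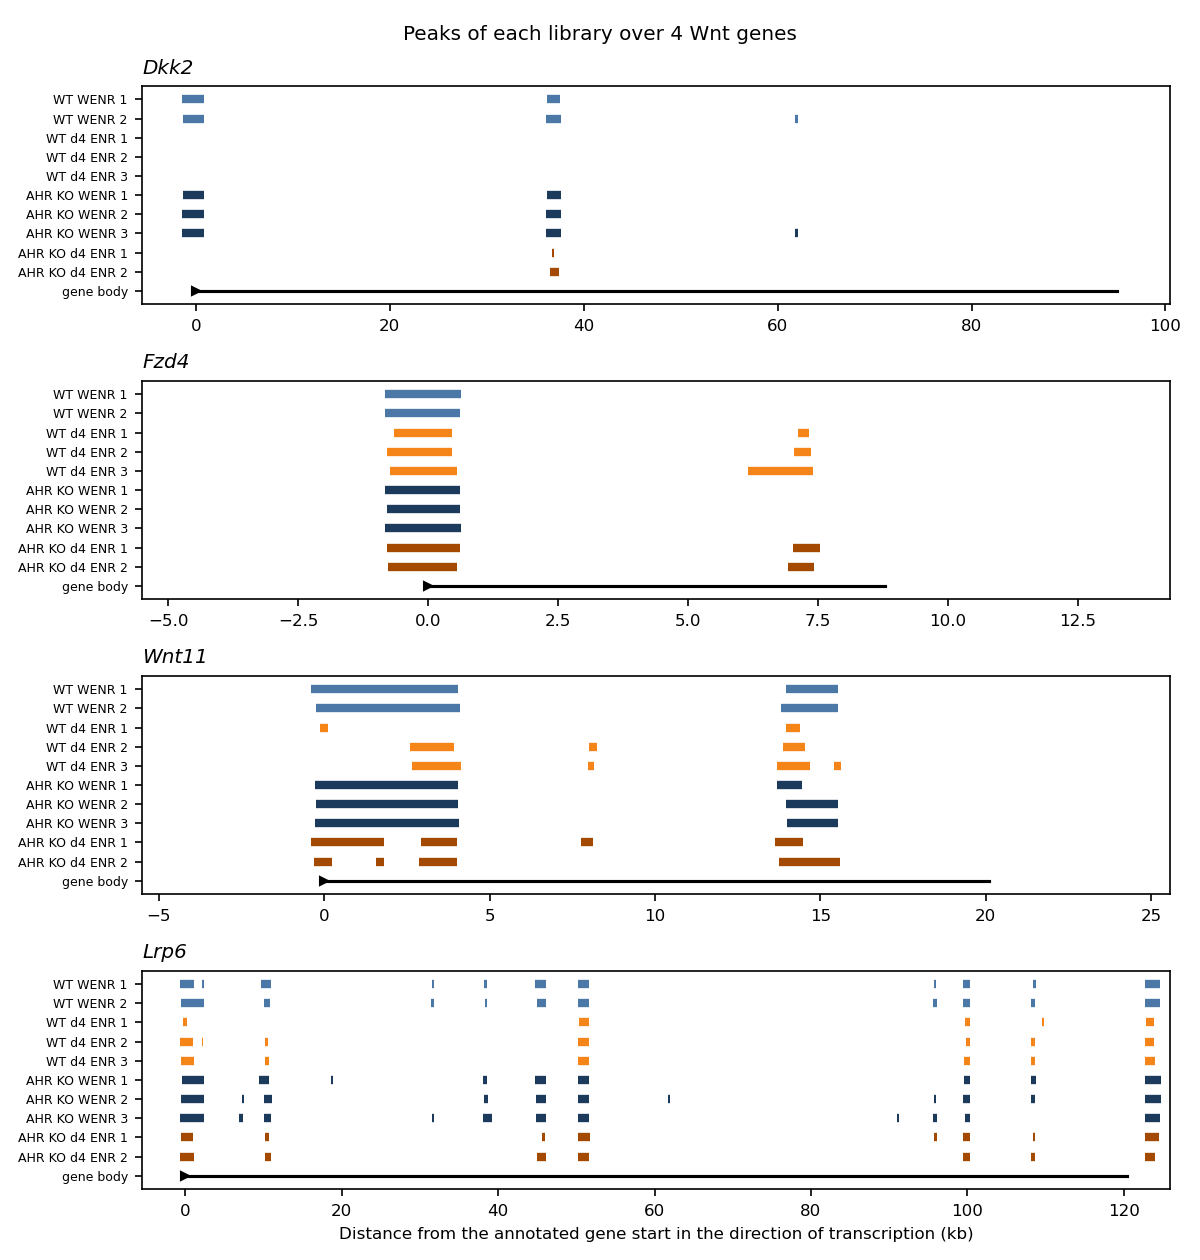
Peaks of each library (rows, coloured by group) over *Dkk2*, *Fzd4*, *Wnt11* and *Lrp6*, by distance from the annotated gene start in kb, with the gene body as a black line. *Dkk2* has no peak in the 3 WT d4 ENR rows, and the *Fzd4* peak near 7 kb is in the 5 d4 ENR rows and no WENR row.

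Of the secreted Frizzled-related proteins, *Sfrp1* and *Sfrp2* fell and *Sfrp4* and *Sfrp5* did not pass the test. *Sfrp1* was covered over 1284 and 1460 bp in WT WENR and 1502, 1260 and 1184 bp in AHR KO WENR, all in 1 promoter region. It was covered over 0, 277 and 0 bp in WT d4 ENR and 722 and 388 bp in AHR KO d4 ENR. In lists cut to equal length *Sfrp1* had a peak in WT WENR alone and did not pass (exact permutation p = 0.2). *Sfrp2* went from 1390 and 1550 bp in WT WENR and 1207, 1355 and 1367 bp in AHR KO WENR to 445, 667 and 513 bp in WT d4 ENR and 656 and 1051 bp in AHR KO d4 ENR. In WT d4 ENR it lost its promoter peak and kept the peak at -2005 bp from its start. The promoter region, chr3:83766005-83766813, was covered over 365 to 809 bp in the 5 WENR libraries, over 516 bp in AHR KO d4 ENR 2 and not in the other 4 d4 ENR libraries. The upstream region, chr3:83763792-83764683, had a peak in all 10 libraries, of 731 to 892 bp in WENR and 445 to 667 bp in d4 ENR. *Sfrp4* had 1 region of 346 to 497 bp in all WENR libraries and 350 and 399 bp in AHR KO d4 ENR, and none in WT d4 ENR (exact permutation p of the medium = 0.06). It lies at -3441 bp from the start of *Sfrp4* and within 1 kb of a start of *Epdr1*. *Sfrp5* had a single peak, of 683 bp in AHR KO d4 ENR 2.

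Among the Dickkopf genes *Dkk2* alone had peaks in most libraries and alone passed the test. Its covered bases were 3586 and 3939 bp in WT WENR and 3593, 3706 and 4136 bp in AHR KO WENR. No peak was called in WT d4 ENR, and 235 and 944 bp were covered in AHR KO d4 ENR (exact permutation p = 0.02, adjusted p = 0.0387). The promoter region, chr3:132083867-132086136, was covered over 2099 to 2270 bp in WENR and in no d4 ENR library. The intron region, chr3:132121399-132122949, had a fold enrichment of 5.81 to 6.36 in WENR and of 2.97 and 3.95 in AHR KO d4 ENR. In lists of equal length *Dkk2* kept 1352 to 1541 bp in the 5 WENR libraries and had no peak in any d4 ENR library. *Dkk1*, an inhibitor that is itself a Wnt target, had peaks of 236 and 358 bp in 2 AHR KO WENR libraries and none elsewhere. They lie across the upstream edge of its window, which holds 100 and 243 bp of them. *Dkk3*, a divergent member of the family, had 1 peak, of 357 bp in WT d4 ENR 1. *Dkk4* had peaks of 241 to 359 bp in 1 library each of WT d4 ENR, AHR KO WENR and AHR KO d4 ENR.

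Rank sets a peak against the other peaks of its own list, and so depends on how many weak peaks that list holds. It rose in d4 ENR for 3 Wnt genes (7.89%), *Wnt11*, *Fzd7* and *Fzd5*, against 19.0% of all genes, and fell for 12 (31.6%), against 24.1%, at an unadjusted exact permutation p of at most 0.05. No gene of the genome passed an adjusted p of 0.05 in this test, the smallest being 0.0565. Those that fell were 8 ligands (*Wnt2b*, *Wnt3*, *Wnt4*, *Wnt5b*, *Wnt7a*, *Wnt7b*, *Wnt9b* and *Wnt16*), *Sfrp1*, *Sfrp2*, *Sfrp4* and *Dkk2*, and none was a receptor or co-receptor. A gene without a peak in a library was given a rank of 0 there. Of those that fell, *Wnt3*, *Wnt4*, *Wnt16*, *Sfrp1*, *Sfrp4* and *Dkk2* had such libraries in d4 ENR, so their falls partly reflect absent peaks. In lists cut to equal length 6 Wnt genes rose (20.7%) and 7 fell (24.1%), against 31.7% and 13.3% of all genes. Ranks dropped by 66.7 percentage points at *Dkk2*, dropped by 55.7 at *Wnt7a* and dropped by 46.9 at *Wnt4*, and rose by 35.9 at *Wnt11*, 22.0 at *Fzd7* and 18.2 at *Fzd5*. *Wnt7a* shows what the 2 measures share and do not: its promoter peak was called in all 10 libraries, with a rank of 69.3 to 89.6 in WENR and of 4.56 to 45.6 in d4 ENR. Over the 25 Wnt genes with a peak in all libraries, the median rank of the strongest peak was 69.8 to 77.5 in WENR, 51.8 to 64.2 in WT d4 ENR and 69.8 and 72.1 in AHR KO d4 ENR. Over the 14235 genes of the genome with a peak in all libraries it was 84.8 to 85.1 in WENR and 79.4 to 85.8 in d4 ENR. The median of the highest pileup in the window, per 10 M fragments, was 21.2 to 27.2 at the 25 Wnt genes in WENR. It was 5.77 to 11.4 in WT d4 ENR and 12.1 and 13.2 in AHR KO d4 ENR. At all such genes it was 44.0 to 48.5, 12.7 to 18.6 and 23.6 and 28.6, in the same order.

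**Figure D4:**
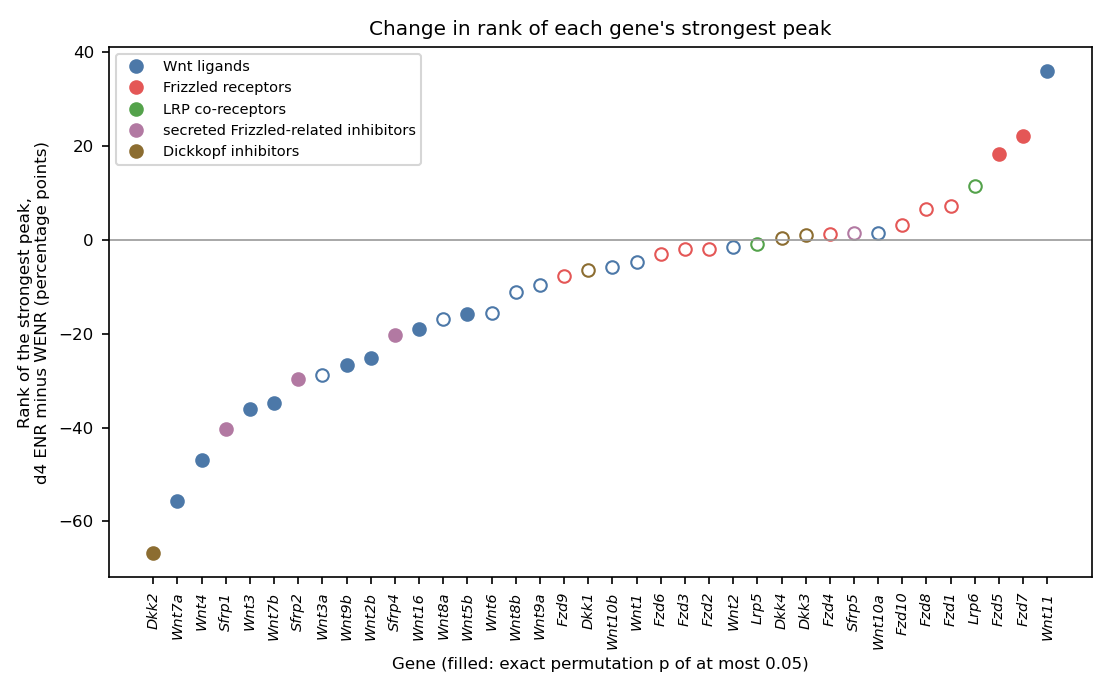
Change in the rank of the strongest peak in d4 ENR against WENR, in percentage points, for the 38 Wnt genes with a peak, ordered by the change and coloured by role. Filled dots had an unadjusted exact permutation p of at most 0.05. *Dkk2* is lowest, *Wnt11* highest, and both other filled dots above 0 are Frizzled receptors.

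With lists of equal length, 29 Wnt genes had a peak. Covered bases were lower in d4 ENR for 17 (58.6%), against 43.4% of all genes, and higher for 1 (3.45%), *Wnt11*, against 1.81%. The 17 were 7 ligands, 6 Frizzled genes (*Fzd1*, *Fzd5*, *Fzd6*, *Fzd7*, *Fzd8* and *Fzd9*), both co-receptors, *Sfrp2* and *Dkk2*. *Fzd2* and *Fzd10*, lower with all peaks, then had mean differences above 0, of 246 and 1265.5 bp (exact permutation p = 0.9 and 0.06). Also lower with all peaks, *Wnt9a*, *Wnt10b* and *Sfrp1* did not pass (exact permutation p = 0.38, 0.8 and 0.2), and *Wnt1*, *Wnt3* and *Wnt16* had no peak. The median log2 ratios over genes covered in both media were then -0.62 in WT and -0.23 in AHR KO, against -0.44 and -0.10 over all genes.

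The genotypes were compared within each medium, where 2 against 3 libraries allow 10 arrangements and no exact 2-sided p below 0.2, so that a gene was only counted where the libraries did not overlap. In d4 ENR, the lower AHR KO value exceeded the highest of the 3 WT values for 16 Wnt genes (42.1%), against 54.4% of all genes, and below for none, against 0.237%. The 16 were *Wnt1*, *Wnt4*, *Wnt6*, *Wnt7b*, *Wnt9a*, *Wnt10a*, *Wnt11*, *Fzd3*, *Fzd6*, *Fzd8*, *Fzd10*, *Lrp5*, *Lrp6*, *Sfrp1*, *Sfrp4* and *Dkk2*. The differences of the means were largest at *Lrp5* (4620 bp), *Wnt1* (2867 bp), *Wnt7b* (2321 bp), *Lrp6* (2319 bp) and *Wnt11* (2241 bp). The share of coverage in peaks also differed between the genotypes in d4 ENR, as given above, and with lists of equal length the count was 10 genes against 52.2% of all genes, and 0 below against 0.572%. Leaving out WT d4 ENR 3, the WT library with the most peaks, raised it to 26 Wnt genes and 75.2% of all genes.

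In WENR, AHR KO lay above WT for 9 Wnt genes (23.7%), against 11.8% of all genes, and below for 8 (21.1%), against 11.1%. Those above were *Wnt3a*, *Wnt4*, *Wnt7b*, *Wnt10a*, *Wnt10b*, *Fzd2*, *Fzd5*, *Lrp5* and *Lrp6*, and those below were *Wnt3*, *Wnt6*, *Wnt9a*, *Wnt9b*, *Wnt11*, *Fzd3*, *Fzd6* and *Sfrp2*. With lists of equal length 3 of 29 lay above (10.3%) and 4 below (13.8%), against 8.56% and 12.8% of all genes, so the shares were then near the background. The promoter region of *Wnt4* (chr4:137276930-137277498) and an intron region of *Wnt7b* (chr15:85568518-85569689) had a peak in all 3 AHR KO WENR libraries and in no other library, which held for 2 of the 108 Wnt regions (1.85%) and for 0.796% of all regions. These regions were singled out after their values were seen. They were covered over 262 to 538 bp and 361 to 1172 bp at a fold enrichment of at most 3.27.

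Whether the response to the medium depended on the genotype was tested by permuting genotypes within media. This test passes at 0.05 only for genes at which the genotypes differ in opposite directions in the 2 media, since the observed arrangement must be the largest or next largest of 100. The exact permutation p was at most 0.05 for 6 Wnt genes (15.8%), *Wnt6*, *Wnt9a*, *Wnt11*, *Fzd3*, *Fzd6* and *Sfrp2*, against 11.2% of all genes. At *Wnt6*, *Wnt9a*, *Wnt11* and *Sfrp2* the mean fell less in AHR KO than in WT, and at *Fzd3* and *Fzd6* it was lower in d4 ENR in WT and higher in AHR KO, at 108% and 112% of WENR. The difference had this sign at 11.1% of all genes and the other sign at 0.0347%. The test passed, with lists of equal length, at 1 of 29 Wnt genes (3.45%), against 12.5% of all genes. The adjusted p was 0.325 for 5 of them and 0.359 for *Sfrp2*, so none passed the adjustment.

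**Figure D5:**
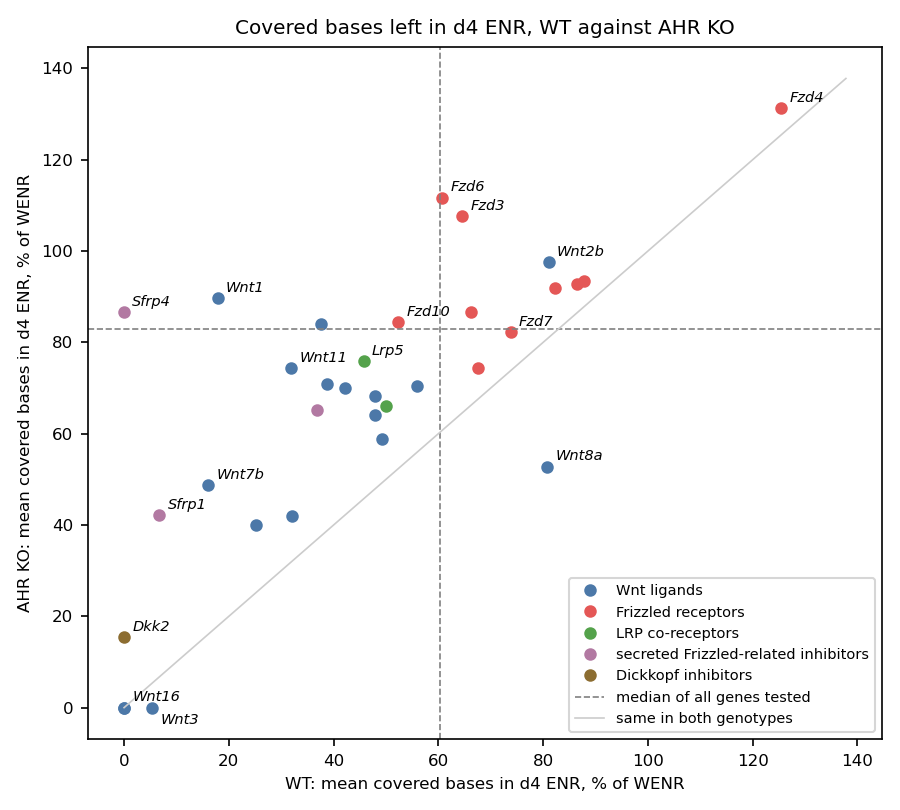
Mean covered bases in d4 ENR as a percent of the WENR mean, WT (x) against AHR KO (y), for each Wnt gene covered in WENR in both genotypes, coloured by role. Dashed lines mark the medians of all genes (60.4% in WT and 82.9% in AHR KO). *Wnt3* and *Wnt8a* alone lie below the line of equal values, apart from *Wnt16* and *Wnt3a* at the origin, and *Fzd4* lies furthest to the upper right.

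Merging the peaks of all libraries gave 108 regions in the windows of the Wnt genes among 85680 in all. Of these, 37 (34.3%) had a peak in every library, against 32.9% of all regions, and 22 of the 37 were promoters. Of the 36 promoter regions 22 had a peak in all libraries, and of the 47 intron regions 8. A peak in every WENR library and none from d4 ENR was found in 7 regions (6.48%), against 5.46% of all: the promoters of *Dkk2* and *Wnt16*, a promoter region of *Wnt10a* and introns of *Wnt3* (chr11:103809827-103810757), *Wnt5b* (chr6:119472149-119472610), *Lrp6* and *Wnt9a* (chr11:59330471-59331151). The *Wnt10a* region has its core 1394 bp downstream of the nearest start. Another *Wnt10a* promoter region, at the gene start, had a peak of 543 bp in AHR KO d4 ENR 2. The naming rule takes 6 of the 7, and *Wnt10a* is the one named beyond it, after its values were seen. The converse was found at *Fzd4* alone (0.926%), against 0.317%. A peak in both WT WENR and no WT d4 ENR library that all 5 AHR KO libraries held was found in 5 regions (4.63%), against 1.68%. They lie in introns of *Dkk2* and *Lrp6*, in an exon of *Fzd3* (chr14:65193274-65193681), past the end of *Wnt7b* (chr15:85533995-85534967) and upstream of *Sfrp4*. With lists of equal length these counts were 2, 2 and 2, against 1.66%, 1.06% and 0.327% of all regions. The *Wnt7b* region was covered over 743 to 927 bp in WENR and 579 and 888 bp in AHR KO d4 ENR at a fold enrichment of 3.49 to 5.17.

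Of 37 other genes of the pathway, 35 had a peak, 28 of them were covered less in d4 ENR and none more, against 60.0% and 0.428% of all genes. The 6 with the largest differences in mean covered bases fell by 11493 bp at *Tcf7l2*, the main intestinal TCF factor, and fell by 10269 bp at *Gsk3b*, the kinase that marks β-catenin for decay. *Lgr4*, an R-spondin receptor, fell by 6662 bp. *Rnf43* fell by 6475 bp and *Znrf3* fell by 6147 bp, the ligases that remove Frizzled from the membrane, and *Ctnnb1*, β-catenin itself, fell by 4040 bp. In this list 8 genes rose in rank and 11 fell, against 19.0% and 24.1% of all genes. Of the R-spondin genes, *Rspo1* and *Rspo2* had no peak in any library.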

How the data were processed

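Omni-ATAC-seq libraries of colon organoids were processed by the authors with the nf-core/atacseq workflow: reads were aligned to GRCm38 with BWA and broad peaks were called for each library alone, without a control, by MACS 2.2.7.1. The deposited lists give, for each peak, its position, its pileup (a coverage signal), its fold enrichment over local background (a ratio) and its −log10 p and q. They hold no read counts per gene, so no count test was made. From these lists, covered bases, the highest fold enrichment and the highest pileup were computed for each gene body with 5 kb on each side (GENCODE M21). These maxima need not come from the same peak. Rank in its own list was taken for the strongest peak, that of highest fold enrichment. Peaks of all libraries were merged into regions. The precision is limited by 2 or 3 libraries in a group, and nothing in the sources used here says whether same-numbered libraries share an animal, so p-values measure only the spread between these libraries. Exact permutation tests were 2-sided (the doubled smaller tail): the medium was permuted within genotypes and the genotype within media, each with 100 arrangements, with Benjamini-Hochberg adjustment over the 17290 genes with a peak. Values in every library are given for genes called in a test, up to the 10 with the largest difference in each direction, and for a fixed list of 16 members. Regions were named where open in 1 medium alone, or lost in WT and kept in AHR KO, up to 6 of each kind by mean fold enrichment, and of the other pathway genes the 6 called ones with the largest difference. The members and lists were chosen with earlier results of these data known. Sequences were read from the RefSeq GRCm38.p6 genome. Alternatives were lists of equal length, a stricter q, other windows, another overlap, other ranks, each library left out and the replicate number as a block. Tests used scipy 1.17.1, numpy 2.4.6 and pandas 2.3.3 under Python 3.11.15, and the scripts were tested on simulated data. The values of 1 marker gene are not reported here.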

Additional observations from a re-analysis of the deposited data

Results flagged for a closer look

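The difference in covered bases between d4 ENR and WENR itself differed between the genotypes at 6 Wnt genes, by an exact permutation test of genotypes within media. The change in AHR KO minus the change in WT was 2676 bp at *Wnt11*, 1571 bp at *Wnt6*, 865 bp at *Wnt9a*, 812 bp at *Fzd6* and 543 bp at *Fzd3* (exact permutation p = 0.02 each, the smallest that 100 arrangements can give), and 472 bp at *Sfrp2* (exact permutation p = 0.04). The adjusted p was 0.325 to 0.359, so none passed adjustment over all genes, and the test passed for 11.2% of all genes. At each of the 6 both AHR KO d4 ENR libraries, except at *Sfrp2*, lay above the 3 WT d4 ENR libraries, and all AHR KO WENR libraries lay below both WT WENR libraries. With lists of equal length it passed at 1 of 29 Wnt genes (3.45%), against 12.5% of all genes.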

How the results depend on the processing

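With lists of equal length, 1 Wnt gene was covered more in d4 ENR, 6 rose and 7 fell in rank (31.7% and 13.3% of all genes), the median log2 ratios were -0.62 in WT and -0.23 in AHR KO, AHR KO lay above WT for 10 genes in d4 ENR and for 3 in WENR and below for 4 in WENR, the response differed between genotypes at 1, and 2 regions each were open in WENR only, open in d4 ENR only, and lost in WT but kept in AHR KO. Under the same lists the rank changes of *Wnt10b* (9.18), *Fzd3* (1.30), *Fzd6* (2.86) and *Lrp5* (13.2) turned direction. The covered bases of *Wnt11* (1390 bp), *Fzd3* (0.917 bp), *Fzd2* (246 bp), *Fzd10* (1265.5 bp) and *Wnt8b* (21.6 bp) also turned. Apart from these covered bases, turns are listed only among the genes whose values in every library are given by rule. With −log10 q of at least 5, the AHR KO median was -0.51, the response differed at 1 gene, 11 regions were open in WENR only and 0 in d4 ENR only, and *Dkk4* turned to -40.2 bp. Over the gene body alone 1 gene was covered more, with 20 kb on each side 3 genes lay lower in AHR KO in WENR and *Sfrp5* (-353 bp) and *Dkk3* (-42.3 bp) turned, and requiring 50% of a region covered left 0 open in d4 ENR only. For the stricter q, the other windows and the 50% rule, no share over all genes is given. Ranked by −log10 q, *Wnt10a* (-8.28), *Fzd3* (1.97) and *Dkk4* (-0.516) turned, and *Wnt10a* also at the promoter alone (-11.3). Leaving out each library that enters a result in turn gave 22 to 24 genes covered less, 0 to 1 more (*Fzd4*, without WT d4 ENR 1), 3 to 4 higher and 11 to 13 lower in rank, medians of -1.31 to -0.88 in WT and -0.44 to -0.31 in AHR KO, 17 to 26 genes higher in AHR KO in d4 ENR (26 without WT d4 ENR 3) and 0 lower, 10 to 13 higher and 8 to 12 lower in WENR, 5 to 7 with a differing response, and 7 to 10, 1 and 5 to 8 regions of the 3 kinds, 8 without AHR KO d4 ENR 1. Of all genes, 51.7% to 60.1% were then covered less and 0.301% to 0.995% more. In rank, 16.2% to 19.4% lay higher and 20.2% to 24.7% lower. AHR KO lay higher in d4 ENR for 56.9% to 75.2% of all genes and lower for 0.434% to 1.34%. In WENR it lay higher for 14.5% to 26.9% and lower for 14.3% to 24.2%. The response differed at 6.57% to 13.6% of all genes, and no share is given for the regions. With libraries left out, the rank changes of *Lrp5* (-8.32 to 6.27), *Fzd3* (-3.64 to 0.434), *Wnt10b* (-13.4 to 1.89), *Wnt10a* (-1.85 to 4.76) and *Dkk4* (-3.20 to 5.67) took both signs. Deviations of same-numbered libraries correlated at -0.0196 to 0.0119. Where a group has 2 libraries their deviations are mirror images, so these values cannot tell whether the numbers pair the libraries. With the replicate block (4 pairs, 16 arrangements, smallest p 0.125) 25 genes were lower and 0 higher at that p, against 60.5% of all genes lower, and none could reach 0.05. The cause of these changes was not tested.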
